A study of Pan troglodytes with 38 samples.

Results

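A set of 10 genes whose products sit at or near the Z-disc of heart muscle, or respond to mechanical stress on it, were followed through heart tissue of 38 chimpanzees. They were ANKRD1, ANKRD2, XIRP1, XIRP2, CSRP3, MYOZ2, TCAP, NRAP, FHL2 and LDB3, picked by symbol, and all 10 are among the 31373 genes of the chimpanzee gene count table. The tissue was post-mortem heart of captive born animals, with no treatment, genotype or disease group in the sample labels, and the study's methods name no heart region. By the study's own sample table, RNA was extracted in 2 different years, from 17 hearts on 4 dates in the earlier year and from 21 hearts on 1 date in the later year. The earlier hearts were 10 females and 7 males, and the later hearts were 12 females and 9 males. Age is given for 34 animals, 21 animals came from the Yerkes primate center, and 7 of the later animals were noted as carriers of hepatitis B or C virus. Animals are named as in the labels, and some of them are close relatives, so the 38 hearts are not fully independent.

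The Z-disc is the boundary between neighbouring sarcomeres, the contractile units of muscle. It anchors the thin filaments through alpha-actinin and the ends of titin, and it also carries proteins that sense stretch and pass signals to the nucleus. In cardiomyocytes the muscle ankyrin repeat proteins are known to be induced by stretch and pressure load, whereas proteins such as telethonin and LDB3 are standing parts of the structure. Mutations in several of these genes are known causes of cardiomyopathy.

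The gene counts summed to between 43892814 and 132478050 per heart, and the lowest count of any of the 10 genes in any heart was 81, for ANKRD2. Levels are given as CPM, a gene's counts scaled to the same effective library size in every heart by the TMM method, which is set by the bulk of genes. No gene lengths were used, so levels are compared between hearts and never between genes. Cardiomyocyte markers, 12 of 12 detected, summed to between 7435 CPM in Little_R and 77990.1 CPM in 438, and the skeletal muscle markers to at most 146.8 CPM. The share of counts on mitochondrial genes was over 45% in 6 hearts (495, 529, 537, 558, 4X0339 and Little_R), all of the later extraction. Heart 549 had the highest sum of atrial markers, 32199 CPM against a median of 1591 CPM, and the lowest sum of ventricular markers, 547.1 CPM against a median of 33356 CPM. In bulk tissue, fewer cardiomyocytes and less RNA of a gene per cardiomyocyte cannot be told apart.

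ANKRD1, ANKRD2 and XIRP2 spanned the widest ranges of the 10 genes. ANKRD1, cardiac ankyrin repeat protein, which binds titin in the I-band and also enters the nucleus, was lowest in 338 at 77.8 CPM, had a median of 2212 CPM and was highest in 4x523 at 7241 CPM. Its mean was 2549 ± 1958 CPM (SD, n = 38), and the highest heart was 93.1 times the lowest. After 338, the low hearts were Little_R at 230.3 CPM and 554 at 232.7 CPM. 4X0550, at 6643 CPM, and 4x0025, at 6571 CPM, were next below 4x523. The upper quartile of ANKRD1 was 3.39 times the lower quartile, so its spread was not made by the extreme hearts alone.

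ANKRD2, a second muscle ankyrin repeat protein best known from skeletal muscle, was lowest in 549 at 1.70 CPM, had a median of 28.6 CPM and reached 277.8 CPM in 4x0025, a range of 164-fold. The next highest heart, 724, was at 139.3 CPM, and the upper quartile was 6.14 times the lower. 4x0025 was thus the extreme high heart of ANKRD2 and was also high for ANKRD1, while 724, at 1012 CPM of ANKRD1, lay below the ANKRD1 median.

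XIRP1 and XIRP2 encode the Xin repeat proteins, which bind actin and are found at the intercalated discs that join cardiomyocytes. XIRP1 was lowest in 338 at 144.9 CPM, had a median of 357.7 CPM and was highest in 4x523 at 1527 CPM, 10.5 times the lowest. XIRP2 was lowest in 495 at 24.2 CPM, had a median of 250.2 CPM and was highest in 4x0025 at 3508 CPM, 145 times the lowest. The pair of hearts at the top was the same for both Xin genes, since 4x0025 had 1437 CPM of XIRP1 and 4x523 had 1581 CPM of XIRP2. CSRP3, muscle LIM protein, is a Z-disc partner of telethonin and alpha-actinin. It ran from 195.1 CPM in Little_R over a median of 1226 CPM to 2239 CPM in 4x0025, 11.5 times the lowest.

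The structural genes varied less between the quartiles. TCAP, telethonin, which caps the ends of titin, was lowest in Little_R at 1116 CPM, had a median of 4459.7 CPM and was highest in 623 at 8217 CPM, with an upper quartile 1.65 times the lower. MYOZ2, calsarcin-1, which binds alpha-actinin and calcineurin, was lowest in 537 at 202.4 CPM, had a median of 1081 CPM and was highest in 88A020 at 1704 CPM. LDB3, also called ZASP or cypher, a PDZ and LIM protein of the Z-disc, was lowest in Little_R at 101.5 CPM, had a median of 1055 CPM and was highest in 623 at 1766 CPM. The quartile ratios of MYOZ2 and LDB3 were 1.79 and 1.71.

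NRAP, a nebulin-related anchoring protein of the intercalated disc and of forming myofibrils, was lowest in Little_R at 56.9 CPM, had a median of 851.2 CPM and was highest in 476 at 1959 CPM, 34.4 times the lowest. FHL2, a LIM-only protein that binds titin and many signalling proteins, was lowest in 549 at 93.2 CPM, had a median of 1057 CPM and was highest in 476 at 2781 CPM. Its upper quartile was 3.42 times the lower, close to the ratio of ANKRD1. Heart 549, lowest for FHL2 and for ANKRD2, had 5401 CPM of ANKRD1, well above the ANKRD1 median.

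**Figure D1:**
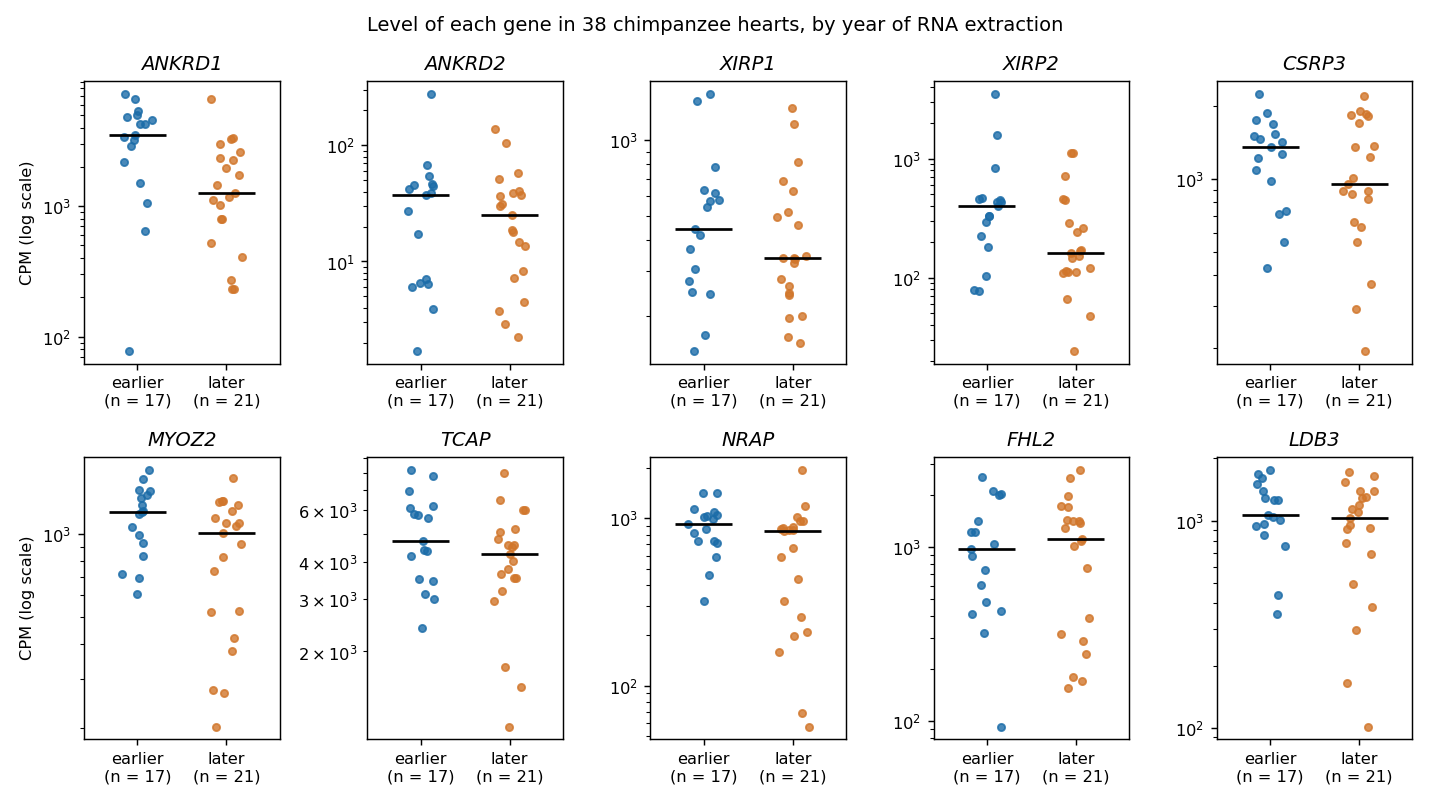
Level of each gene (CPM, log axis) in every heart, by year of RNA extraction, with 1 point per heart and a line at the median of each year. ANKRD1, ANKRD2 and XIRP2 spread over the widest ranges, and TCAP over the narrowest on this scale, from 1116 to 8217 CPM.

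Hearts differed in which members were low. Little_R was among the 6 lowest hearts for all 10 genes, 495 for 8 and 537 for 7, and each of these hearts had a mitochondrial share over 45%. 338 was among the 6 lowest for 4 genes and among the 6 highest for 2. It had the lowest ANKRD1 and XIRP1, but 2096 CPM of FHL2 and 1134 CPM of NRAP, both above the median. 476 was among the 6 highest for 7 genes and among the 6 lowest for 0. 4x0025 was among the 6 highest for 5 genes and among the 6 lowest for 2, which were LDB3, at 356.0 CPM, and TCAP, at 2397 CPM.

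**Figure D2:**
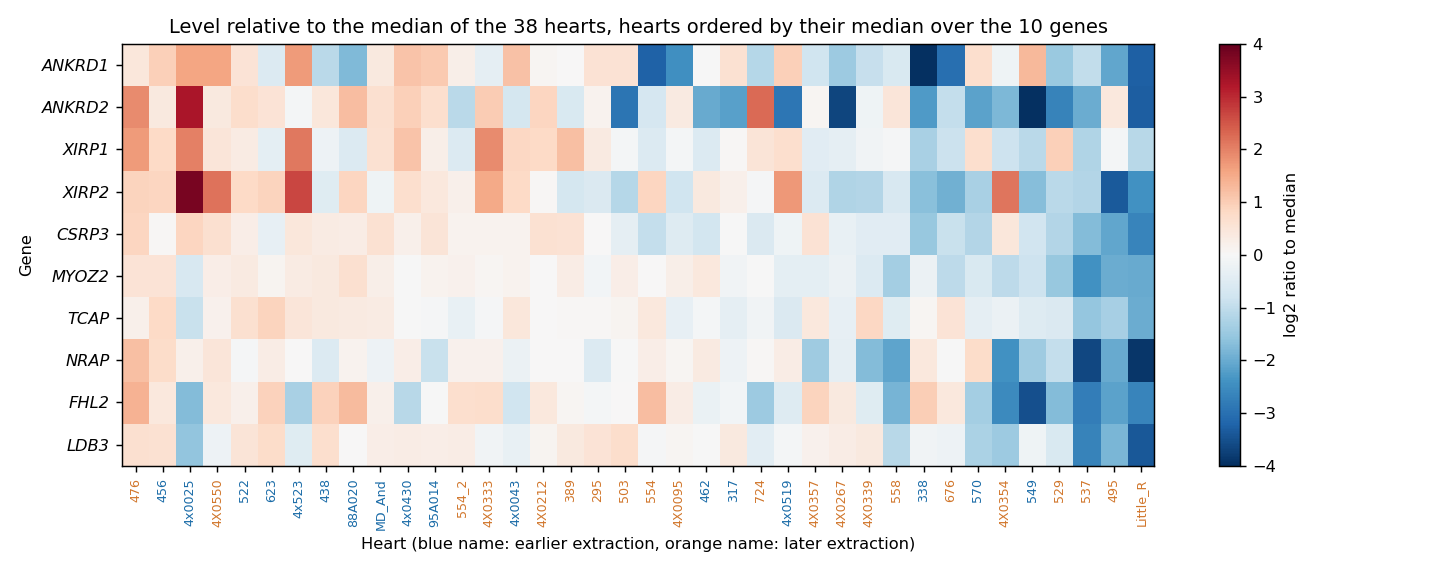
Log2 ratio of each gene's CPM to its median over the 38 hearts (color, limited to 4 in either direction), with hearts ordered by their median over the 10 genes and named in blue (earlier extraction) or orange (later extraction). Little_R, 495 and 537 are low across most rows, while 4x0025 is high in ANKRD1, ANKRD2, XIRP1 and XIRP2 and below the median in FHL2 and LDB3.

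How variable each gene was for its mean level was measured as dispersion, the natural log of its overdispersion in a negative binomial model minus the trend over genes of the same mean. Of the 11779 genes that reached 6 CPM in some heart, 44.9% had a dispersion above 0, as had 9 of the 10 genes here. ANKRD2 had the highest, 2.48 ± 0.24 (SE from leaving out each heart, n = 38), and ranked 105 of the 11779. XIRP2 followed at 2.02 ± 0.26, rank 252, ANKRD1 at 1.29 ± 0.22, FHL2 at 1.25 ± 0.20, XIRP1 at 1.07 ± 0.19 and NRAP at 1.03 ± 0.31. LDB3 had 0.58 ± 0.35, CSRP3 0.47 ± 0.26 and MYOZ2 0.31 ± 0.29, each within 2 SE of the trend. Leaving out 1 heart took LDB3 to 0.31 and CSRP3 to 0.28 (Little_R) and MYOZ2 to 0.12 (537). TCAP lay below the trend, at -0.43 ± 0.29, and was also within 2 SE of it. Neighbours in this order differed by less than their SE except ANKRD2 and XIRP2, XIRP2 and ANKRD1, NRAP and LDB3, and MYOZ2 and TCAP. Without the 6 hearts of high mitochondrial share, a choice made after the data were seen, ANKRD1 rose to 1.74, ANKRD2 to 2.92 and XIRP1 to 1.56, while LDB3 fell to 0.33, NRAP to 0.70 and MYOZ2 to -0.13.

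The pattern was not the same in both extraction years. XIRP1 had a dispersion of 1.68 in the earlier hearts and 0.82 in the later hearts, and FHL2 had 1.72 and 1.14. NRAP went the other way, with 0.37 in the earlier and 1.23 in the later hearts. These differences between years were not tested. Among the other lists, 15 of 15 load-induced fetal genes had a dispersion above 0 with a median of 2.22, and 21 of 27 other Z-disc and titin anchoring proteins did with a median of 0.44. The relatives of the members had 13 of 16 (median 0.61), calcineurin and NFAT signalling 7 of 14 (0.10) and the YAP and TEAD axis 12 of 19 (0.13), against a median of 1.05 for the 10 genes and -0.11 for all genes.

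**Figure D3:**
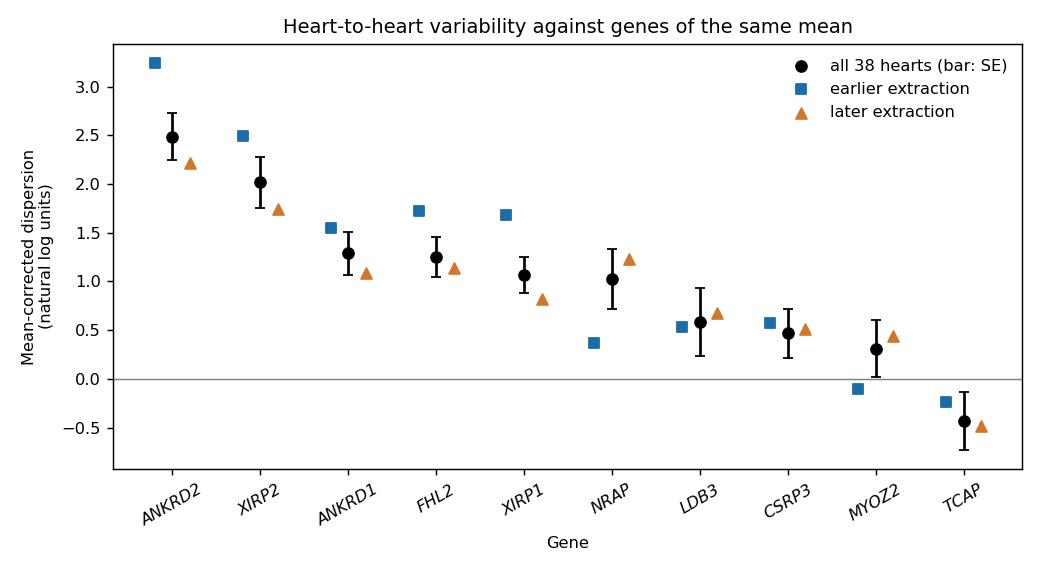
Dispersion of each gene in natural log units, for all 38 hearts (black, bars are the SE from leaving out each heart), the earlier extraction (blue squares) and the later extraction (orange triangles). ANKRD2 and XIRP2 lie highest, at 2.48 and 2.02. TCAP lies below 0 in all 3 sets of hearts, though within 2 SE of 0 over all 38.

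Whether the genes varied together was measured by Pearson r and Spearman rho of log2(CPM + 0.5) over the 38 hearts, for 45 pairs, with two-sided permutation tests. Adjusted over the 45 pairs, 29 passed by Pearson r and 21 by both measures, and all 21 were positive. All 21 also had r above 0 within the earlier hearts and within the later hearts. Pairs are called correlated below when both measures passed. The share of pairs that would pass among other heart muscle genes, or among all genes, was not measured. Whether 21 of 45 is particular to these genes was therefore not tested.

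The genes are grouped here after their r had been seen. LDB3, MYOZ2, TCAP and FHL2 were correlated in all 6 of their pairs. MYOZ2 and LDB3 had r = 0.82 and rho = 0.63 (adjusted permutation p = 5e-05 and 0.00045), with r = 0.71 after leaving out the 2 hearts farthest from the median of MYOZ2 and r = 0.60 in the earlier hearts and 0.87 in the later ones. TCAP and LDB3 had r = 0.81 and rho = 0.57 (adjusted permutation p = 5e-05 and 0.0015), r = 0.64 without the 2 farthest hearts, 0.64 in the earlier hearts and 0.86 in the later ones. NRAP was correlated with MYOZ2 (r = 0.81, rho = 0.55, adjusted permutation p = 5e-05 and 0.0018), but r was 0.17 in the earlier hearts against 0.88 in the later ones. It was also correlated with FHL2 (r = 0.66, rho = 0.53, adjusted permutation p = 5e-05 and 0.0027), with r = 0.35 in the earlier hearts and 0.84 in the later ones. Of NRAP and LDB3, r was 0.70 over all hearts and fell to 0.40 without the 2 hearts farthest in NRAP, with rho = 0.27 (adjusted permutation p = 0.15) and r = -0.19 in the earlier hearts, so that relation rested on few hearts.

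ANKRD1, XIRP1, XIRP2 and CSRP3 were also correlated in all 6 of their pairs. XIRP2 and CSRP3 had the highest r, 0.71, with rho = 0.66 (adjusted permutation p = 5e-05 and 0.00045), r = 0.64 without the 2 farthest hearts, 0.69 in the earlier hearts and 0.71 in the later ones. ANKRD1 and CSRP3 had r = 0.64 and rho = 0.54 (adjusted permutation p = 8.2e-05 and 0.0025), r = 0.53 without the 2 farthest hearts, 0.51 in the earlier hearts and 0.73 in the later ones. ANKRD1 and XIRP1 had r = 0.58 and rho = 0.57 (adjusted permutation p = 0.00052 and 0.0016), r = 0.49 without the 2 farthest hearts, 0.68 in the earlier hearts and 0.47 in the later ones. ANKRD2 was correlated with XIRP1, XIRP2 and CSRP3, and with MYOZ2 close to the threshold, a relation lost in 5 of 6 alternatives. With its relative ANKRD1 it did not pass (r = 0.19, rho = 0.12, adjusted permutation p = 0.28 and 0.52, 0.03 without the 2 farthest hearts, 0.13 in the earlier hearts and 0.26 in the later ones).

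Between the genes just described, ANKRD1 and FHL2 had the lowest r of the 45 pairs, -0.15, with rho = -0.21 (adjusted permutation p = 0.39 and 0.26) and r = -0.20 without the 2 farthest hearts. It was -0.64 in the earlier hearts and 0.23 in the later hearts, a difference that was not tested. CSRP3 and MYOZ2 linked the groups of genes, with r = 0.70 and rho = 0.53 (adjusted permutation p = 5e-05 and 0.0031), r = 0.55 without the 2 farthest hearts, 0.37 in the earlier hearts and 0.78 in the later ones. XIRP2 was also correlated with MYOZ2 (r = 0.49, rho = 0.50, adjusted permutation p = 0.0041 and 0.0042) and with NRAP (r = 0.43, rho = 0.47, adjusted permutation p = 0.012 and 0.0083). In the earlier hearts these r were 0.15 and 0.25, and in the later ones 0.56 and 0.43. Without the 6 hearts of high mitochondrial share 11 pairs passed, 10 of them among the 21. Among ANKRD1, XIRP1, XIRP2 and CSRP3, the calls of ANKRD1 with XIRP2, ANKRD1 with CSRP3 and XIRP1 with XIRP2 were lost (adjusted permutation p of rho 0.12, 0.13 and 0.052). Among LDB3, MYOZ2, TCAP and FHL2, those of TCAP with LDB3 and MYOZ2 with FHL2 were lost (0.18 and 0.082). Those of NRAP with MYOZ2 and with FHL2 were lost too (0.27 and 0.27). MYOZ2 and CSRP3 fell to r = 0.30 and did not pass (adjusted permutation p = 0.18 and 0.22). The calls of XIRP2 with MYOZ2 and with NRAP were lost as well. In those 32 hearts, r of ANKRD1 and FHL2 was -0.47 and passed (larger adjusted permutation p of the 2 measures, 0.022). Without 549, 20 pairs passed.

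**Figure D4:**
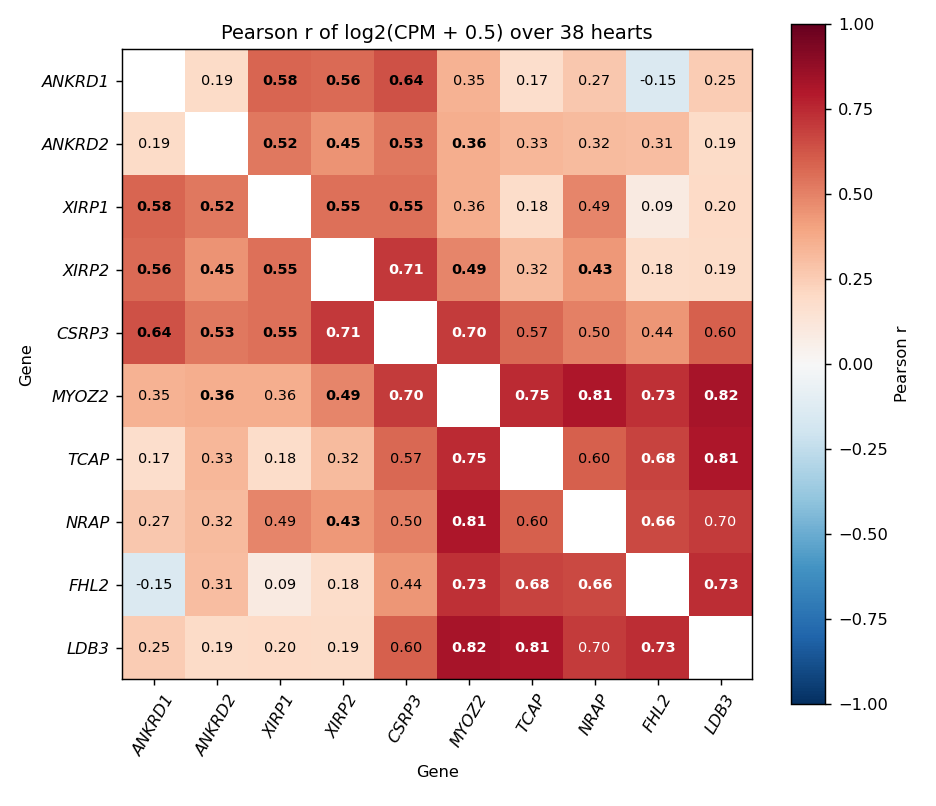
Pearson r of log2(CPM + 0.5) over the 38 hearts for each pair of genes, in bold where both r and rho passed after adjustment over the 45 pairs. All pairs among MYOZ2, TCAP, FHL2 and LDB3 are in bold, as are all pairs among ANKRD1, XIRP1, XIRP2 and CSRP3. High values also lie outside these pairs. NRAP has 0.81 with MYOZ2 and 0.66 with FHL2 in bold, and 0.70 with LDB3 and 0.60 with TCAP not in bold. CSRP3 has 0.70 with MYOZ2 in bold and 0.60 with LDB3 not in bold. ANKRD1 with FHL2 is the only value below 0, at -0.15.

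The genes of highest r with each member, among 14412 others with a symbol, are given as a description with no test. Those of XIRP1 were FLNC, filamin C, an actin crosslinker of the Z-disc (r = 0.77), HSPB8, a small heat shock protein that works with BAG3 (0.76), and TUBA4A, an alpha-tubulin (0.72). TUBA4A also led for ANKRD2, at 0.72, before GRAMD2B at 0.68 and JPT2 at 0.66. For XIRP2 they were ALDH3A2, a fatty aldehyde dehydrogenase (0.82), MYOT, myotilin, a Z-disc protein (0.81), and ENAH, an actin regulator (0.80). ALDH3A2 was the third for ANKRD1, at 0.72, after MYL12A, a non-sarcomeric myosin regulatory light chain (0.79), and LEO1 (0.75).

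For LDB3 they were SLC25A3, the mitochondrial phosphate carrier (0.95), NDUFV1, a subunit of respiratory complex I (0.95), and SLC5A1, a sodium-glucose cotransporter (0.95). For MYOZ2 they were PCMT1 (0.94), VDAC1, the channel of the outer mitochondrial membrane (0.94), and DLAT, a subunit of pyruvate dehydrogenase (0.93). For TCAP they were TRIM54, a muscle ubiquitin ligase (0.89), UROS, an enzyme of haem synthesis (0.87), and FIS1, of mitochondrial fission (0.87). NRAP had PDLIM5, a PDZ and LIM protein of the Z-disc (0.90), MTMR1 (0.90) and RCAN2, a regulator of calcineurin (0.90). FHL2 had PFKP, a phosphofructokinase (0.85), TMEM14B (0.84) and ACAT1, a mitochondrial thiolase (0.84), and CSRP3 had SAAL1 (0.89), ADSL, an enzyme of purine synthesis (0.88), and HHATL (0.86). The median r of each member with all kept genes lay between -0.03 for FHL2 and 0.02 for ANKRD1.

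Because members can move with the cells in a sample, each was set against the summed markers of 10 cell types or chambers, the mitochondrial share and the RNA integrity number (RIN), 120 relations in all, chosen after member values had been seen. After adjustment over the 120, 19 passed by both measures, 11 positive and 8 negative. In the 32 hearts without a high mitochondrial share 5 passed, all positive. LDB3 followed the cardiomyocyte markers most closely (r = 0.91, rho = 0.81, adjusted permutation p = 0.00017 and 0.0003), with r = 0.81 without the 2 farthest hearts, 0.70 in the earlier hearts and 0.95 in the later ones. MYOZ2 had r = 0.87 with them and rho = 0.76 (adjusted permutation p = 0.00017 and 0.0003), 0.80 without the 2 farthest hearts, 0.82 in the earlier hearts and 0.87 in the later ones. TCAP had r = 0.81 and rho = 0.65 (adjusted permutation p = 0.00017 and 0.00048), 0.66 without the 2 farthest hearts, 0.63 in the earlier hearts and 0.86 in the later ones. Without the 6 hearts of high mitochondrial share LDB3 had r = 0.71 and MYOZ2 r = 0.75 and both passed, whereas TCAP had r = 0.43 and did not (adjusted permutation p = 0.10 and 0.094). Over all hearts CSRP3 had r = 0.79 and rho = 0.60 with the cardiomyocyte markers (adjusted permutation p = 0.00017 and 0.0015). FHL2 had r = 0.65 and rho = 0.54 (adjusted permutation p = 0.00036 and 0.0063), so both genes also passed by both measures. For ANKRD1, r with the same markers was 0.45 and rho 0.31 (adjusted permutation p = 0.020 and 0.20), so only r passed. NRAP (r = 0.66, rho = 0.20) and XIRP2 (r = 0.40, rho = 0.30) also passed by r alone, and XIRP1 and ANKRD2 by neither.

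FHL2 is itself on the list of ventricular markers and was left out of the sum. That sum was nearly all MYH7, MYL2 and MYL3, with means of 18921, 8987 and 4743 CPM in the earlier hearts. IRX3, HEY2, IRX5 and IRX4 had means of 46.6, 44.8, 14.7 and 11.2 CPM there and hardly entered it. With the other 7 ventricular markers, FHL2 had r = 0.79 and rho = 0.72 (adjusted permutation p = 0.00017 and 0.00051), 0.76 without the 2 farthest hearts, 0.77 in the earlier hearts and 0.84 in the later ones. With the atrial markers it had r = -0.13 and rho = 0.02 (adjusted permutation p = 0.59 and 0.96), 0.20 without the 2 farthest hearts, -0.58 in the earlier hearts and 0.20 in the later ones. Without the 6 hearts of high mitochondrial share FHL2 had r = 0.71 with the ventricular markers and passed, and r = -0.64 and rho = -0.40 with the atrial ones (adjusted permutation p = 0.012 and 0.17). The ventricular relation was not particular to FHL2. Over all 38 hearts MYOZ2 (r = 0.73, rho = 0.81), LDB3 (0.65, 0.79), TCAP (0.65, 0.63), CSRP3 (0.58, 0.50) and NRAP (0.63, 0.43) also passed by both measures. MYL2 and MYL3 stand on both the ventricular and the cardiomyocyte list. NRAP fell with the mitochondrial share (r = -0.79, rho = -0.64, adjusted permutation p = 0.00017 and 0.0006), with r = -0.70 without the 2 farthest hearts, -0.23 in the earlier hearts and -0.84 in the later ones. XIRP2 also fell with it (r = -0.52, rho = -0.44, adjusted permutation p = 0.0045 and 0.037), with r = -0.54 without the 2 farthest hearts, -0.45 in the earlier hearts and -0.47 in the later ones. In the 32 hearts at or under 45% neither passed, with r = -0.52 and rho = -0.42 for NRAP (adjusted permutation p = 0.03 and 0.13) and r = -0.34 and rho = -0.26 for XIRP2 (adjusted permutation p = 0.24 and 0.47). The other negative relations that passed over all 38 hearts were mostly with cell markers. NRAP fell with the endothelial markers as closely as with the mitochondrial share (r = -0.79, rho = -0.57), and also with the red cell markers (r = -0.41). TCAP and FHL2 fell with the fibroblast markers (r = -0.63 and -0.57), FHL2 with the smooth muscle markers (-0.47) and XIRP1 with the mitochondrial share (-0.46). None of the 10 relations with RIN passed.

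**Figure D5:**
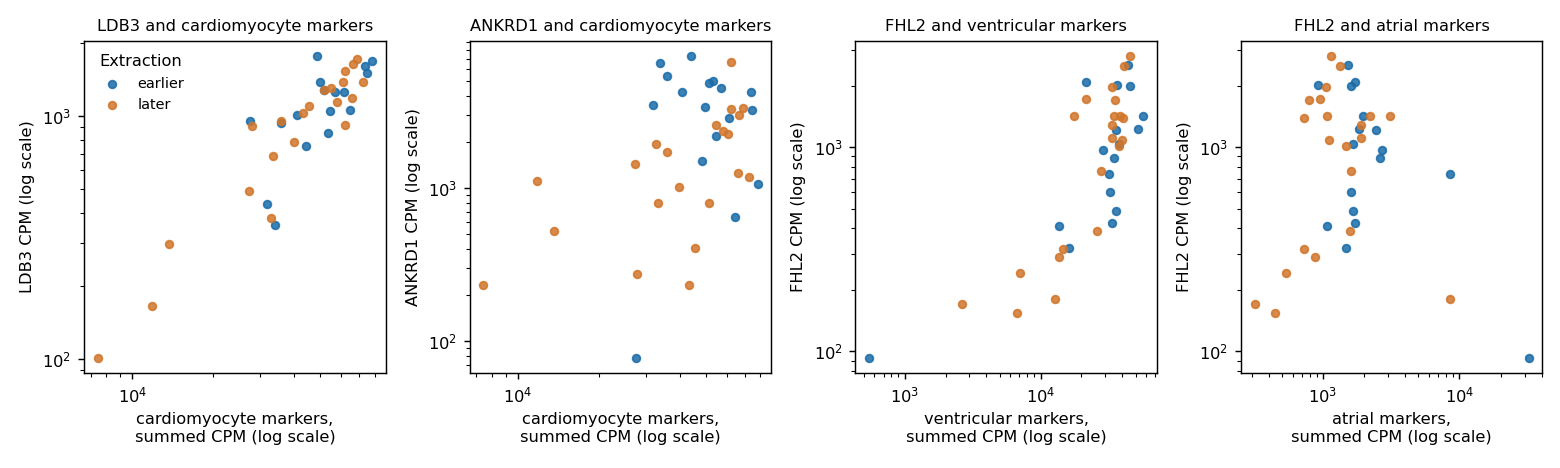
LDB3 and ANKRD1 against the summed cardiomyocyte markers, and FHL2 against the summed ventricular and atrial markers (CPM, both axes log), with 1 point per heart, blue for the earlier and orange for the later extraction. LDB3 rises closely with the cardiomyocyte markers (r = 0.91), ANKRD1 scatters widely (r = 0.45), and the heart at the lower right of the last panel and lower left of the third is 549.

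The 10 genes were also set against 94 genes of 5 lists of related proteins and signals, in 940 relations adjusted together, also chosen after member values had been seen. By both measures 285 passed, 213 positive and 72 negative. In the 32 hearts without a high mitochondrial share 96 passed, 85 positive and 11 negative. With the list of other Z-disc and titin anchoring proteins, 126 of 270 relations passed as positive and 0 as negative, from 22 of 27 for MYOZ2 and 17 for LDB3 down to 4 for ANKRD2. With the YAP and TEAD axis, which relays stretch to transcription, 6 of 200 passed as positive and 29 as negative. With the 6 hearts left out these became 48 and 0 for the Z-disc list and 6 and 7 for the YAP and TEAD axis. The share of relations that would pass among all genes was not measured. Whether the counts are particular to these lists was therefore not tested.

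The list named load-induced fetal genes is mixed. Beside genes of fetal or overloaded hearts it holds early response and stress genes such as FOS, EGR1, ATF3 and HSPB1, and both MYH6 and MYH7. It had 36 of 150 relations that passed, 23 positive and 13 negative, against 30.3% of all 940. By member, ANKRD1 was correlated with 6 of these 15 genes, XIRP2 with 5, CSRP3 with 4, XIRP1 with 1 and ANKRD2 with 0, all positive. FHL2 was correlated with 1 as positive and 6 as negative, MYOZ2 with 3 and 1, TCAP with 1 and 3, LDB3 with 1 and 2, and NRAP with 1 and 1. The differences between members were not tested. With the 6 hearts left out the counts were 7 for ANKRD1 and 2 for XIRP2, all positive, and 1 positive and 0 negative for FHL2. ANKRD1 and ACTA1, skeletal alpha-actin, had r = 0.72 and rho = 0.65 (adjusted permutation p = 8.2e-05 and 0.00022), 0.65 without the 2 farthest hearts, 0.73 in the earlier hearts and 0.71 in the later ones. ANKRD1 and NPPB, which encodes the stretch-released peptide BNP, had r = 0.65 and rho = 0.64 (adjusted permutation p = 8.2e-05 and 0.00038), 0.67 without the 2 farthest hearts, 0.85 in the earlier hearts and 0.38 in the later ones. XIRP2 and ACTA1 had r = 0.72 and rho = 0.74 (adjusted permutation p = 8.2e-05 and 0.00022), 0.67 without the 2 farthest hearts, 0.65 in the earlier hearts and 0.73 in the later ones. All 3 of these relations also passed without the 6 hearts, with r of 0.69, 0.70 and 0.66.

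In all, 5 comparisons between animals were made with edgeR's quasi-likelihood test, adjusted over all genes tested. Between extraction years, with sex in the model, 1 of the 10 genes passed, against 16.1% of the 15790 genes tested. That gene was ANKRD1, lower in the later hearts, as were 4.82% of all genes. It ran from 77.8 over a median of 3492 to 7241 CPM in the 17 earlier hearts, and from 230.3 over a median of 1261 to 6643 CPM in the 21 later hearts. The years overlapped widely, but 14 of 17 earlier hearts lay above the median of the later ones and 1 of 21 later hearts above the median of the earlier ones. The log2 fold change was -1.10 ± 0.38 (SE, edgeR adjusted p = 0.042). The call was near the threshold. Leaving out 1 heart at a time ended it in 25 of 38 cases, with edgeR adjusted p between 0.017 and 0.081, and among the 21 Yerkes animals the log2 fold change was -0.76 ± 0.54 (edgeR adjusted p = 0.53).

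XIRP2 had a difference of like size, with medians of 398.0 CPM in the earlier hearts and 159.3 CPM in the later ones and a log2 fold change of -1.05 ± 0.46, and did not pass (edgeR adjusted p = 0.12). Without 4x0025 it was -0.44. The other 8 genes had log2 fold changes between -0.42 for NRAP and -0.03 for FHL2 (edgeR adjusted p between 0.22 and 0.96). Over the 10 genes the median log2 fold change was -0.32, and over all genes tested -0.01. Markers moved with the year too. Of the 11 atrial markers tested, 6 were lower in the later hearts and 0 higher, and 2 were lower without 549, a heart of the earlier extraction. Their sum ran from 920.1 over a median of 1704 to 32199 CPM in the earlier hearts and from 316.0 over a median of 1116 to 8488 CPM in the later ones. The cardiomyocyte markers summed to a median of 51645 CPM in the earlier and 45577 CPM in the later hearts, with 0 of 12 markers passing. Of the adipocyte markers 3 of 5 were higher in the later hearts, CIDEC, PLIN1 and FABP4. Of the leukocyte markers 2 of 8 were lower, CD163 and CD14, and of the endothelial markers 1 of 7, EGFL7, was higher. Of 7 skeletal muscle markers tested 2 were higher and 1 lower, and no marker of ventricle, fibroblasts, smooth muscle or red cells passed. Without the 6 hearts of high mitochondrial share, 4 of 8 fibroblast markers were lower in the later hearts and 0 higher. They were COL1A1, COL1A2, DCN and PDGFRA. The part of these cells, and of the mitochondrial share (medians 28.7% and 32.7%), in the ANKRD1 difference was not tested. Published and new libraries fall in different years by the study's sample table, so they cannot be told apart from the year.

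Of the related lists, few genes differed between years. Higher in the later hearts were FHL5 among relatives of the members (log2 fold change 1.18 ± 0.39, edgeR adjusted p = 0.035), NFATC4 (1.36 ± 0.28, edgeR adjusted p = 0.00081) and AKAP5 (1.19 ± 0.28, edgeR adjusted p = 0.0026) of calcineurin and NFAT signalling, and ATF3, a stress-induced transcription factor (2.10 ± 0.60, edgeR adjusted p = 0.014). Lower were CAPZA2 (-0.58 ± 0.17, edgeR adjusted p = 0.017) and CAPZB (-0.31 ± 0.08, edgeR adjusted p = 0.0073), subunits of the protein that caps thin filaments at the Z-disc. Also lower were the load-induced fetal genes MYL4 (-2.03 ± 0.68, edgeR adjusted p = 0.036), MYL7 (-2.02 ± 0.60, edgeR adjusted p = 0.017) and TNNI1 (-1.42 ± 0.48, edgeR adjusted p = 0.037). MYL4 and MYL7 are atrial myosin light chains and stand on the atrial marker list as well. None of these 3 passed without heart 549, where MYL4 had -0.08, MYL7 -0.75 and TNNI1 -1.17 (edgeR adjusted p = 0.90, 0.39 and 0.068). Of the 9 genes named here AKAP5 alone passed without the 6 hearts of high mitochondrial share (0.97, edgeR adjusted p = 0.019), and FHL5 fell to 0.27, ATF3 to 1.10, NFATC4 to 0.62, CAPZA2 went to -0.34 and TNNI1 to -0.88. AKAP5 was barely detected, with means of 0.18 CPM in the earlier and 0.41 CPM in the later hearts and at most 0.88 CPM. Of the 20 genes of the YAP and TEAD axis 0 passed in edgeR, with 3 at an unadjusted p under 0.05 and 1 passing in DESeq2. DESeq2 also passed 4 relatives of the members in place of 1, 2 load-induced fetal genes in place of 4 and 3 atrial markers in place of 6.

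Between 16 males and 22 females, 0 of the 10 genes passed in edgeR or in DESeq2, where 0.215% of all genes passed in edgeR, and 1 had an unadjusted edgeR p under 0.05. That was ANKRD2, from 2.24 over a median of 37.2 to 277.8 CPM in females and from 1.70 over a median of 21.9 to 45.6 CPM in males. Its log2 fold change was -1.16 ± 0.50 in males against females (edgeR adjusted p = 0.50). FHL2 ran from 171.3 over a median of 1398 to 2781 CPM in females and from 93.2 over a median of 865.6 to 2005 CPM in males. Its log2 fold change was -0.73 ± 0.36 (edgeR adjusted p = 0.60).

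With RIN and with age in 34 animals, 0 of the 10 genes passed in edgeR or DESeq2. Of all genes 0% passed with either in edgeR, with 206 genes passing for RIN and 5 for age in DESeq2. No member had an unadjusted edgeR p under 0.05 for either, and in DESeq2 1 member did for RIN and 0 for age.

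Among the 21 later hearts, 7 virus carriers were compared with 14 others. All 7 carriers and 1 of the others came from the same primate center, so virus and center were nearly confounded. In edgeR 0 of the 10 genes and 0% of all genes passed, with 0 genes also in DESeq2, and 1 of the 10 had an unadjusted p under 0.05. XIRP2 ran from 108.8 over a median of 259.1 to 1118 CPM in carriers and from 24.2 over a median of 155.9 to 462.0 CPM in the others, with a log2 fold change of 1.55 ± 0.56 (edgeR adjusted p = 0.9997). The ranges overlapped.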

How the data were processed

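Libraries were made from polyadenylated RNA of frozen heart. The authors aligned single-end reads with STAR (2.6.1b in the submitters' processing notes) to the chimpanzee genome Pan_tro_3.0 with Ensembl annotation, and deposited the raw count per gene, without normalization, that STAR gives. A second deposited table holds counts on exons orthologous to human, and served here only as an alternative library size. The authors' normalized matrix and the human table were not used here, which left 52 per-sample columns unused, 1 of them a further chimpanzee. Symbols were matched for 18040 of 31373 identifiers. Extraction year, sex, age, RIN, center and virus notes came from the study's sample table, since the labels name only the tissue.

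Counts were tested with edgeR 4.0.16 (TMM, filterByExpr, quasi-likelihood test, Benjamini-Hochberg adjustment, threshold 0.05), with DESeq2 1.42.0 as an alternative, in R 4.3.3. CPM used the TMM effective library size of that fit, and log2 values a pseudocount of 0.5 CPM. Overdispersion was fitted by maximum likelihood against a LOESS trend (degree 1, span 0.75). Correlations used 100000 permutations, whose smallest p is 1e-05. No 2 libraries held identical counts. Steps were tested on simulated data.

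The members and lists were chosen with earlier results of these data known. The relations with markers, mitochondrial share, RIN and list genes, the 45% limit on mitochondrial share and the omission of 549 were chosen after member values were seen, as was the rule that both r and rho must pass. The genes named are the members, up to 3 genes in each direction of each related list that passed for year or RIN, and the 3 genes of highest r with each member. Marker genes, and the list genes whose correlations are given (ACTA1 and NPPB), were chosen after their values were seen. Sequences were not used here.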

Additional observations from a re-analysis of the deposited data

Results flagged for a closer look

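For 3 of the 10 genes the highest of the 7 later virus carriers stood far from the others by Dixon's test on CPM. Chance passes that test for about 1 in 20 groups when values are normally distributed, which was not checked for CPM. The 3 genes therefore cannot be read as an excess over chance. These were ANKRD1 in 4X0550 (6643 CPM against a median of 1454 CPM in the other carriers), XIRP1 in 4X0333 (1341 CPM against 331.2 CPM) and TCAP in 4X0339 (7994 CPM against 4028 CPM). They are 3 different hearts, and 4X0339 is 1 of the 6 hearts with a mitochondrial share over 45%.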

How the results depend on the processing

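No paired analysis was possible because the labels give 1 group with no shared replicate numbers. The number of members that passed between extraction years was 1, and it was 0 with no filter on low counts, without 537 and Little_R, with RIN as covariate, in Yerkes animals only and without the hearts over 45% mitochondrial, and between 0 and 1 when each heart was left out in turn. ANKRD1 then had log2 fold changes of -1.06, -0.998, -1.07, -0.76 and -0.85, in that order, and between -1.23 and -0.95 with 1 heart left out. The call was lost on leaving out any of 25 hearts (4x0025, 4x523, 4x0430, 4X0095, 676, 4X0267, 549, 554, 724, 4x0043, 4x0519, 456, 570, 537, 495, Little_R, 4X0339, 529, 95A014, 4X0333, 4X0357, 317, 558, 522 and 4X0354). The cause was not tested. In Yerkes animals the log2 fold change by year was 0.75 for ANKRD2, 0.46 for XIRP1 and 0.039 for CSRP3. That of FHL2 was 0.10 without 537 and Little_R, 0.047 with RIN as covariate and 0.32 without the hearts over 45% mitochondrial, where CSRP3 had 0.082 and LDB3 0.042. With 1 heart left out, FHL2 lay between -0.11 and 0.11 and ANKRD2 between -0.53 and 0.13. Leaving out the hearts over 45% mitochondrial gave 11 correlated pairs, 10 of them among the 21, whereas the other alternatives gave between 19 and 24. The same omission gave 5 relations with markers, mitochondrial share and RIN (4 of them among the 19) and 96 with list genes (83 among the 285), against 17 and 280 without 549. The dispersion of MYOZ2 was -0.11 in the earlier extraction alone and -0.13 without the hearts over 45% mitochondrial. For sex, RIN, age and virus 0 members passed under every alternative run. Scaling by the orthologous exon total raised all mean CPM values, and made MYOZ2 (5.61-fold) narrower over hearts than TCAP (6.17-fold). With the gene count total, the ranges of XIRP1 (18.3-fold), CSRP3 (24.2-fold) and NRAP (52.8-fold) moved by over 1.5 times. Depth did not limit these genes (lowest count 81).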
